A study of Rattus norvegicus with 36 samples.

Results

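Plus A is a synthetic mimic of the microRNA miR-125b with an A added at its 3′ end, and the comparison described here is that of cells carrying it under hypoxia and under normoxia. The members are the libraries labelled for these conditions, 3 Hypoxia Plus A and 3 Normoxia Plus A libraries, which are 6 of the 36 libraries in the series. The series measured polyadenylated RNA in H9C2 cells after transfection of a mimic control (MC), the canonical miR-125b mimic, Plus A or mimics with bases deleted from the 3′ end, each under normoxia and hypoxia. H9C2 is a single rat cardiac myoblast line, kept in culture, and not a population of mature cardiomyocytes. Both groups received 25 nmol/L of the Plus A mimic for 24 h. The hypoxia cells were then held for 24 h below 0.2% oxygen in serum-free DMEM with low glucose, whereas the normoxia cells were kept under normal conditions in fresh DMEM. Oxygen, serum and glucose therefore changed together, and their parts in any difference below cannot be told apart. The question addressed was how the transcriptome of Plus A cells differed between these conditions, and whether the difference was the same as in cells given miR-125b or Trim A, the mimic that lacks the terminal A.

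Cells sense oxygen through prolyl hydroxylases that mark the alpha subunits of the hypoxia-inducible factors (HIFs) for capture by VHL and degradation. When oxygen is short the alpha subunit persists, pairs with ARNT and binds the short DNA core ACGTG or GCGTG near genes for glucose uptake, glycolysis, vessel growth and mitophagy. Hypoxia is also known to slow cell division and to lower respiration, and withdrawal of serum removes growth factors and lipoproteins. The canonical strand of the mimics, rat miR-125b-5p, is shown because Plus A and Trim A share its 5′ end and differ from it by the terminal A. RefSeq places it in Mir125b2 at chr11:29732588-29732609 of GRCr8 on the + strand, and capitals mark the seed, bases 2 to 8.
rno-miR-125b-5p: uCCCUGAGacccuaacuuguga

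Total counts lay between 28672894 and 30908069 per library, with 18825 to 19189 genes detected in each, so the libraries were of similar depth. Genes of the mitochondrial genome took 3.25 to 3.83% of the counts. Levels below are CPM, read counts scaled to a common library size with TMM factors. A gene was called when its Benjamini-Hochberg adjusted p in edgeR's quasi-likelihood test was below 0.05 and its fold change was at least 1.5. Nothing in the labels says that the replicates were separate cultures, so p-values measure the spread between these libraries. Of the markers of other cell types, epithelial genes summed to 0.123 to 0.192 CPM under hypoxia and 0.242 to 0.429 CPM under normoxia. Leukocyte genes summed to 14.5 to 16.4 CPM and 21.3 to 21.9 CPM, mostly Cd14, with 6 of 8 averaging under 1 CPM, Ptprc among them. The 3 endothelial genes matched summed to 1.17 to 1.77 CPM and 1.04 to 1.39 CPM, and Emcn was at 0 in every library. The part of such cells in the results was not tested.

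A library at odds with its label has to be described before the results. Cav1, which encodes the caveolar coat protein caveolin-1, was at 95.9, 89.4 and 90.0 CPM in Hypoxia Plus A and at 102 CPM in Normoxia Plus A replicates 2 and 3. In the library labelled Normoxia Plus A replicate 1 it was at 274 CPM. The libraries given miR-125b had 233 to 238 CPM under hypoxia, 290 and 270 CPM in normoxia replicates 2 and 3, and 106 CPM in the library labelled Normoxia miR-125b replicate 1. Replicate 1 of each normoxia group thus had the Cav1 level of the other group. Between hypoxia and normoxia under Plus A, Cav1 did not pass the test (log2 fold change -0.79, adjusted p = 0.0677), and it did when normoxia replicate 2 or 3 was left out. Between Hypoxia Plus A and Hypoxia miR-125b, 307 genes were called, which is 2.03% of those tested. Over these genes the library labelled Normoxia Plus A replicate 1 lay nearer to its own group in 74 (24.1%), against 143 (46.6%) and 168 (54.7%) for replicates 2 and 3. The library labelled Normoxia miR-125b replicate 1 mirrored this, nearer to its own group in 78 (25.4%), against 142 (46.25%) and 153 (49.8%). Replicates 2 and 3 were compared with group means that held the libraries labelled replicate 1, so their shares do not show a good match to either group. Whether the labels of these libraries were exchanged was not tested, and this bears on each comparison of Plus A with miR-125b. The groups follow the labels throughout, and counts and medians that changed by over 1.5 times without the library labelled Normoxia Plus A replicate 1 are also given without it.

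**Figure D1:**
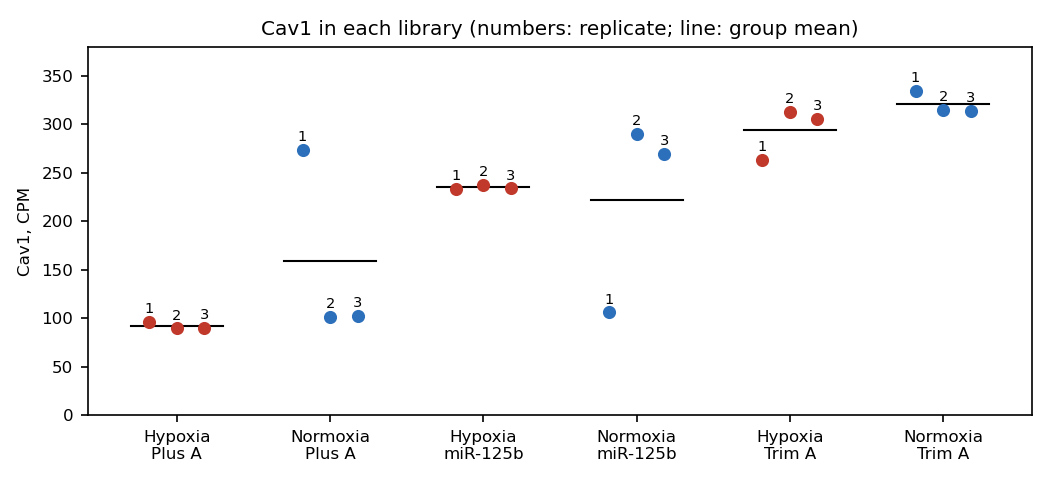
Each point is the Cav1 level (CPM, linear axis from 0) in 1 of 18 libraries, numbered by replicate, with a line at the mean of each group; red is hypoxia and blue normoxia. Replicate 1 of Normoxia Plus A sits at 274 CPM among values near 102, and replicate 1 of Normoxia miR-125b at 106 CPM below 290 and 270.

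Under Plus A, 1503 of 15032 genes tested were higher in hypoxia (10.0% of those tested) and 1924 were lower (12.8%), so that 22.8% were called in all. The libraries of the groups did not overlap in 8821 genes, or 58.7% of those tested, and in 98.3% of the genes called. Changes of at least 4-fold were seen in 134 higher and 231 lower genes. The genes that rose were the less abundant ones, with a median of 4.13 CPM, against 13.95 CPM for those that fell and 22.3 CPM for genes not called. Without the library labelled Normoxia Plus A replicate 1 the counts were 1415 higher and 1940 lower, and 3012 of the 3427 calls (87.9%) were made again in the same direction. The share of calls that were higher, 43.9%, depended on scaling. With library totals alone it was 56.6% (2012 higher, 1546 lower), since that scaling moved the median log2 fold change of all genes from 0.01 by 0.11. In bulk RNA, fewer cells of a kind and less RNA per cell cannot be told apart.

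**Figure D2:**
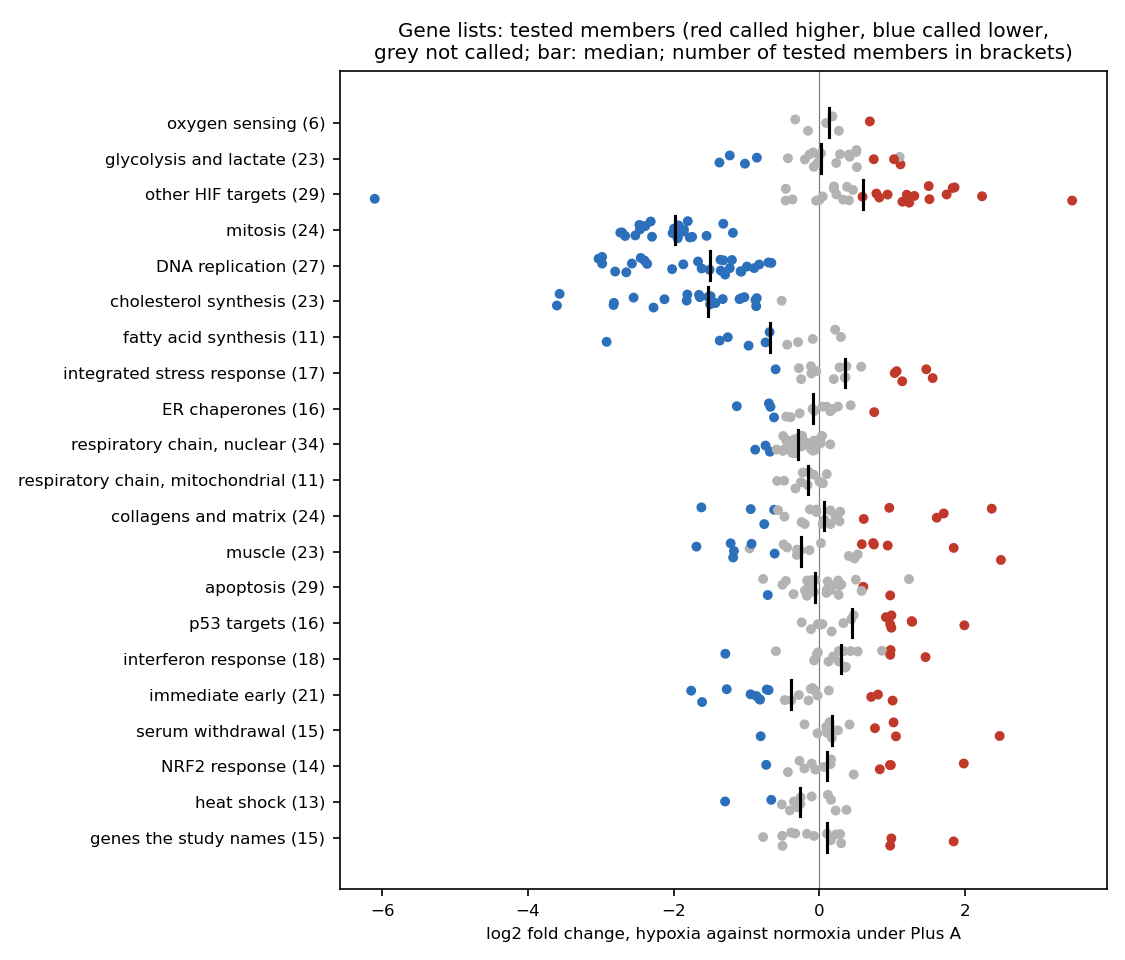
Each point is a tested gene of the list on the left, at its log2 fold change between hypoxia and normoxia under Plus A; red genes were called higher, blue lower, and a bar marks the list's median. The members of the mitosis and DNA replication lists are all blue, with medians of -1.98 and -1.51, while the HIF target list has a median of 0.60 and the glycolysis list one of 0.02.

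Many HIF targets outside glycolysis were higher in hypoxia: 15 of the 29 tested rose, 1 fell and 13 were not called. The shares were 51.7% higher and 3.45% lower, against 10.0 and 12.8% of all genes. The median log2 fold change was 0.60 against 0.01 over all genes. Of the genes that sense oxygen, 1 of 6 tested was called. Hif1a, the oxygen-regulated subunit itself, was at 149, 140 and 134 CPM in hypoxia and 128, 136 and 133 CPM in normoxia. These groups overlapped, and the transcript was not called (log2 fold change 0.09, SE 0.06). Vhl, which captures hydroxylated HIF, rose from 64.5, 59.5 and 59.2 CPM to 106, 93.1 and 96.8 CPM (log2 fold change 0.70, SE 0.07, adjusted p = 2.41e-05). Hif1an, the asparaginyl hydroxylase that restrains HIF activity, stayed within 1.5-fold (log2 fold change -0.33, SE 0.10, adjusted p = 0.0212). Egln3, a HIF-induced prolyl hydroxylase, and Epas1, the HIF-2 alpha subunit, averaged 0.104 and 0.115 CPM and were not tested.

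Among the HIF targets, the steepest rise shared by every hypoxia library was that of Ankrd37, an ankyrin repeat gene. It was at 4.07, 4.59 and 5.27 CPM in hypoxia and at 1.03, 0.643 and 1.28 CPM in normoxia (log2 fold change 2.24, SE 0.25, adjusted p = 7.55e-05). Bnip3, a receptor for mitophagy, was at 143, 153 and 141 CPM in hypoxia and 35.6, 40.3 and 44.9 CPM in normoxia, a 3.63-fold rise (adjusted p = 4.01e-07). The groups were apart for both genes, and Bnip3 was the more abundant per length, at a mean of 89.6 FPKM in hypoxia against 5.30 FPKM for Ankrd37. Vegfa, the growth factor of vessels, rose 2.35-fold, from 250, 277 and 309 CPM to 608, 691 and 663 CPM (adjusted p = 3.07e-06). The histone demethylase Kdm3a went from 41.9, 37.7 and 40.5 CPM to 117, 112 and 111 CPM (2.84-fold, adjusted p = 2.22e-07). Hmox1, which degrades haem, rose 3.36-fold to 660, 690 and 730 CPM. Angptl4, an inhibitor of lipoprotein lipase, the carbonic anhydrase Ca9 (named Car9 in the tables) and the mTORC1 inhibitor Ddit4 rose by 1.83, 1.51 and 1.31 on the log2 scale.

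The call of 1 list member rested on a single library. Mif, a cytokine, was called higher from values of 4.64, 3.73 and 106 CPM in hypoxia against 3.80, 2.82 and 3.74 CPM in normoxia. Its groups overlapped, and without hypoxia replicate 3 its log2 fold change was 0.28 (adjusted p = 0.328) and the median of the list was 0.40. Without the library labelled Normoxia Plus A replicate 1, 13 HIF targets were higher, 1 was lower and the median was 0.52.

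The promoters of a pair of called HIF targets and of Ldha, a glycolytic target that was not called, are shown to set the HIF core beside the expression values. Each is the RefSeq window of 250 bases before to 50 after the start of the gene in GRCr8, read 5′ to 3′ on the strand of the gene, and capitals mark every ACGTG or GCGTG on either strand. CACGTG, which is also an E-box, holds ACGTG on both strands. The windows are chr16:53001257-53001556 (+) for Ankrd37, chr1:203154913-203155212 (-) for Bnip3 and chr1:106507842-106508141 (+) for Ldha.
Ankrd37: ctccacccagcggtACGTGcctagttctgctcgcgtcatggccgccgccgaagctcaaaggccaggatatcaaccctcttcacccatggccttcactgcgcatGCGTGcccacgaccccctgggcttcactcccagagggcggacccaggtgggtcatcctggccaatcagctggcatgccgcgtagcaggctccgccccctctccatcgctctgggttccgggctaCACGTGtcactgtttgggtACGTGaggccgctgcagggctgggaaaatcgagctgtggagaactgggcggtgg
Bnip3: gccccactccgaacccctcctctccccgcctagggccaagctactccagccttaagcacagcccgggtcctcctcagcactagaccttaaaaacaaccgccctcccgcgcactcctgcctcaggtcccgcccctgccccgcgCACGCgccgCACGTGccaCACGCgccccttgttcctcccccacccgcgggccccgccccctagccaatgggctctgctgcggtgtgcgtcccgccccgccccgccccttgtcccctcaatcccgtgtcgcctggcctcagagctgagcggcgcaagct
Ldha: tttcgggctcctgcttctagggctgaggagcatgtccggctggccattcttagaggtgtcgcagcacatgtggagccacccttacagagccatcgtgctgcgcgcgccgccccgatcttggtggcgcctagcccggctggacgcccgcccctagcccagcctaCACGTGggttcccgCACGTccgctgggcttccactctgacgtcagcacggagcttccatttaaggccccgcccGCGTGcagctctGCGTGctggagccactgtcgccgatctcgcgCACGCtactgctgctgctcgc

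A match was common in these windows, since 11788 of 27457 promoters (42.9%) held at least 1. It was found in 10 of 13 HIF targets that rose and have a window in the table, and in 8 of 10 that were not called. Vegfa, Adm and Kdm3a rose with no match in the window. In the glycolysis list, 3 of 3 genes that rose, 3 of 4 that fell and 8 of 14 that were not called held a match. Ldha, with 6 matches counted over both strands, overlapped between the groups and was not called. The letters were therefore present in called and uncalled targets alike.

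**Figure D3:**
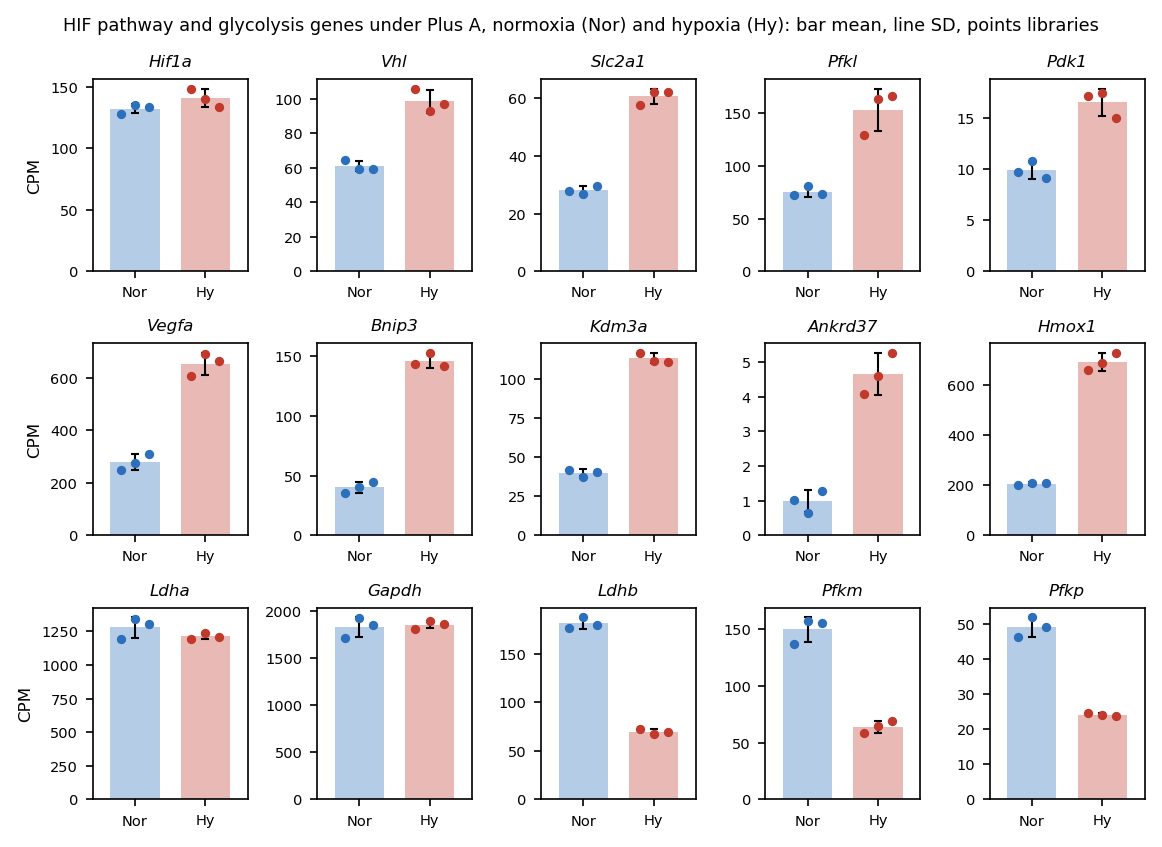
Bars are the mean CPM of 3 libraries in normoxia (Nor, blue) and hypoxia (Hy, red) under Plus A, lines the SD and points the libraries; each panel has its own linear axis from 0. Slc2a1, Vegfa, Bnip3 and Kdm3a are higher in each hypoxia library, Hif1a, Ldha and Gapdh overlap between the groups, and Ldhb, Pfkm and Pfkp are lower.

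Glycolysis genes did not move in one direction. Of 23 tested, 3 rose, 4 fell and 16 were not called, with a median of 0.02. The shares, 13.04% higher and 17.39% lower, were near the 10.0 and 12.8% of all genes. The gene for the glucose transporter GLUT1, Slc2a1, rose from 27.6, 26.8 and 29.5 CPM to 57.3, 61.9 and 62.1 CPM (log2 fold change 1.12, SE 0.07, adjusted p = 1.62e-06). Pdk1, the kinase that closes pyruvate dehydrogenase, rose by 0.75 on the log2 scale. The subunits of phosphofructokinase, the committed step of the pathway, moved apart. Pfkl, the liver form, was at 130, 163 and 166 CPM in hypoxia against 72.2, 80.6 and 73.2 CPM in normoxia (log2 fold change 1.03, SE 0.10). Pfkm, the muscle form, was at 58.4, 64.4 and 68.9 CPM in hypoxia against 137, 158 and 155 CPM in normoxia (log2 fold change -1.23, SE 0.08, adjusted p = 2.42e-06). Pfkp, the platelet form, fell to 24.6, 23.9 and 23.9 CPM from 46.3, 52.1 and 49.0 CPM. None of the 3 subunits overlapped between the groups, and in hypoxia Pfkl replaced Pfkm as the form with more FPKM (55.4 against 21.5, where normoxia had 27.1 and 50.3).

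The subunits of lactate dehydrogenase also differed. Ldhb, which favours lactate oxidation, fell from 176, 188 and 180 CPM to 72.9, 67.9 and 69.3 CPM (log2 fold change -1.37, SE 0.06, adjusted p = 2.40e-07). Ldha, which favours lactate formation, was at 1193, 1237 and 1208 CPM in hypoxia and 1193, 1344 and 1305 CPM in normoxia and was not called. Gapdh was likewise not called (log2 fold change 0.02, SE 0.06). Aldoa, Pkm and Hk2 were at 1.42, 1.43 and 1.43 times their normoxia level, below the threshold although their groups did not overlap. Pfkfb4, usually counted as a HIF target, was called lower from 1.43 ± 0.33 (SD, n = 3) against 2.595 ± 0.806 CPM (SD, n = 3). A second identifier carries the name Pfkfb4, so reads may have been split between them. Scaling moved this list: with library totals alone 7 members were higher and the median was 0.13. So did single libraries, since without the library labelled Normoxia Plus A replicate 1 the median was 0.20, with 3 higher and 3 lower, and without normoxia replicate 2 it was 0.17.

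Genes of the respiratory chain were slightly lower as a list and were seldom called. Of 34 nuclear genes tested, 3 fell (8.82%, against 12.8% of all genes), none rose and the median log2 fold change was -0.29. Those that fell were Cox6c and Cox5a, subunits of cytochrome c oxidase, with log2 fold changes of -0.88 and -0.74, and Ndufb8 of complex I, with -0.68. Ndufb8 lost its call, by fold size, with library totals alone and without hypoxia replicate 1. Cox6c was at 97.9, 96.7 and 102 CPM in hypoxia and at 180, 185 and 184 CPM in normoxia, with no overlap. None of 11 genes of the mitochondrial genome was called (median -0.16), and Mt-nd3, at -0.58 (SE 0.08), came nearest to the threshold. The adjusted p alone was below 0.05 for 5 of the 11, and for 49.2% of all genes tested, the 5 being genes for subunits of complex I with lower values in hypoxia. With DESeq2, or without the library labelled Normoxia Plus A replicate 1, 1 of the 11 was called lower.

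The cell cycle genes of both lists fell. All 24 mitosis genes tested were lower (median -1.98), as were all 27 DNA replication genes (median -1.51), against 12.8% of all genes. Rrm2, a subunit of ribonucleotide reductase, was at 12.8, 10.3 and 12.4 CPM in hypoxia and at 108, 91.4 and 91.8 CPM in normoxia, an 8.17-fold difference (adjusted p = 7.97e-08). Mcm6, of the replicative helicase, fell from 138, 110 and 106 CPM to 17.5, 17.5 and 15.6 CPM. Every hypoxia library was far below every normoxia library for both genes. Plk1, the polo-like kinase of mitotic entry, was at 20.7, 17.1 and 19.3 CPM against 139, 115 and 121 CPM (log2 fold change -2.71, SE 0.09). Ccna2, cyclin A2, fell to 11.5, 10.3 and 11.2 CPM from 85.7, 67.2 and 67.0 CPM. The smallest falls in replication genes were those of Rfc4 and the sliding clamp Pcna, with log2 fold changes of -0.66 and -0.70. In each of Rrm2, Mcm6, Plk1 and Ccna2 the library labelled Normoxia Plus A replicate 1 was the highest in normoxia. Without it 24 mitosis and 25 replication genes were called lower, with medians of -1.85 and -1.48.

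Sterol synthesis fell nearly as a whole pathway. Of 23 genes tested 22 were lower (95.65%, against 12.8% of all genes) and none higher, with a median of -1.52. The remaining gene, Pmvk, stood at -0.52 (SE 0.12). Idi1, an isomerase of the pathway, was at 6.72, 6.87 and 6.38 CPM in hypoxia and at 43.4, 46.5 and 51.99 CPM in normoxia (7.08-fold lower in hypoxia, adjusted p = 7.95e-08). Fdft1, the squalene synthase gene, fell 4.36-fold, from 79, 83.9 and 97.4 CPM to 22.8, 19.7 and 17.05 CPM. The groups were apart for both genes. Stard4, a carrier of sterols, fell 7.06-fold, and Sqle, the squalene epoxidase gene, fell 2.04-fold. Among the regulators, Insig1, which retains SREBP in the endoplasmic reticulum, fell from 94.2, 94.1 and 107 CPM to 16.6, 16.4 and 17.4 CPM. Srebf2, the SREBP that drives the pathway, had a log2 fold change of -1.07 (SE 0.05), and Srebf1 one of 0.22 (SE 0.06), which was not called. Without the library labelled Normoxia Plus A replicate 1, 22 genes were again lower, with a median of -1.61.

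Fatty acid synthesis followed in part, with 6 of 11 genes lower (54.55%, against 12.8% of all genes), none higher and a median of -0.68. Fasn, the synthase, went from 425, 441 and 438 CPM to 222, 224 and 219 CPM (log2 fold change -0.97, SE 0.05). The desaturases Scd (named Scd1 in the tables) and Fads1 fell by 2.92 and 1.37 on the log2 scale. Scd2, at -0.09 (SE 0.06), and Acaca, at -0.29 (SE 0.06), were not called.

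Part of the p53 pathway was higher. Of 16 tested, 7 rose (43.8%, against 10.0% of all genes) and none fell, with a median of 0.46. Cdkn1a, the cyclin-dependent kinase inhibitor p21, rose 1.99-fold, from 389, 414 and 413 CPM to 732, 829 and 848 CPM. Mdm2, a ubiquitin ligase, rose 1.89-fold, and the stress gene Gadd45a rose 2.42-fold. The hypoxia and normoxia libraries were apart for each of these 3 genes. Gdf15, a stress cytokine, had the largest log2 fold change, 1.99, but at a mean of 0.992 ± 0.111 CPM (SD, n = 3) in hypoxia. Tp53inp1, a p53 target that acts in autophagy and cell death, rose from 11.8, 11.8 and 14.3 CPM to 26.2, 25.0 and 23.1 CPM.

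Apoptosis genes as a list had a median of -0.05, near the 0.01 of all genes. Fewer were called, with 2 of 29 tested higher (6.90%) and 1 lower (3.45%), against 10.0 and 12.8% of all genes. Tp53inp1 and Birc2, an inhibitor of apoptosis, rose, by 0.97 and 0.61 on the log2 scale. Bcl2, which protects from apoptosis, was called lower at -0.71 (SE 0.25, adjusted p = 0.0372), a call lost with library totals alone and without hypoxia replicate 1 or 3 or normoxia replicate 2 or 3, with adjusted p up to 0.104. The Birc2 call was lost, by fold size, without hypoxia replicate 1 or the library labelled Normoxia Plus A replicate 1. The effectors Bak1 and Bax were not called, with log2 fold changes of -0.07 and 0.23 (SE 0.10 for each). Of the 15 genes that the study names and that were tested, 3 rose and none fell, with Tnnt2 and Tp53inp1 among those that rose. These genes were picked in the study on this cell system, so the count is not independent evidence. Without the library labelled Normoxia Plus A replicate 1, 3 were higher and 2 lower in this list. The apoptosis list then had 1 higher and 2 lower, with a median of -0.03. Actb, often used as a reference gene, stood at -0.51 (SE 0.07), with 4045, 3798 and 3665 CPM in hypoxia and 4978, 5713 and 5728 CPM in normoxia. It was called lower when the library labelled Normoxia Plus A replicate 1 was left out, at -0.59 (adjusted p = 2.75e-05).

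**Figure D4:**
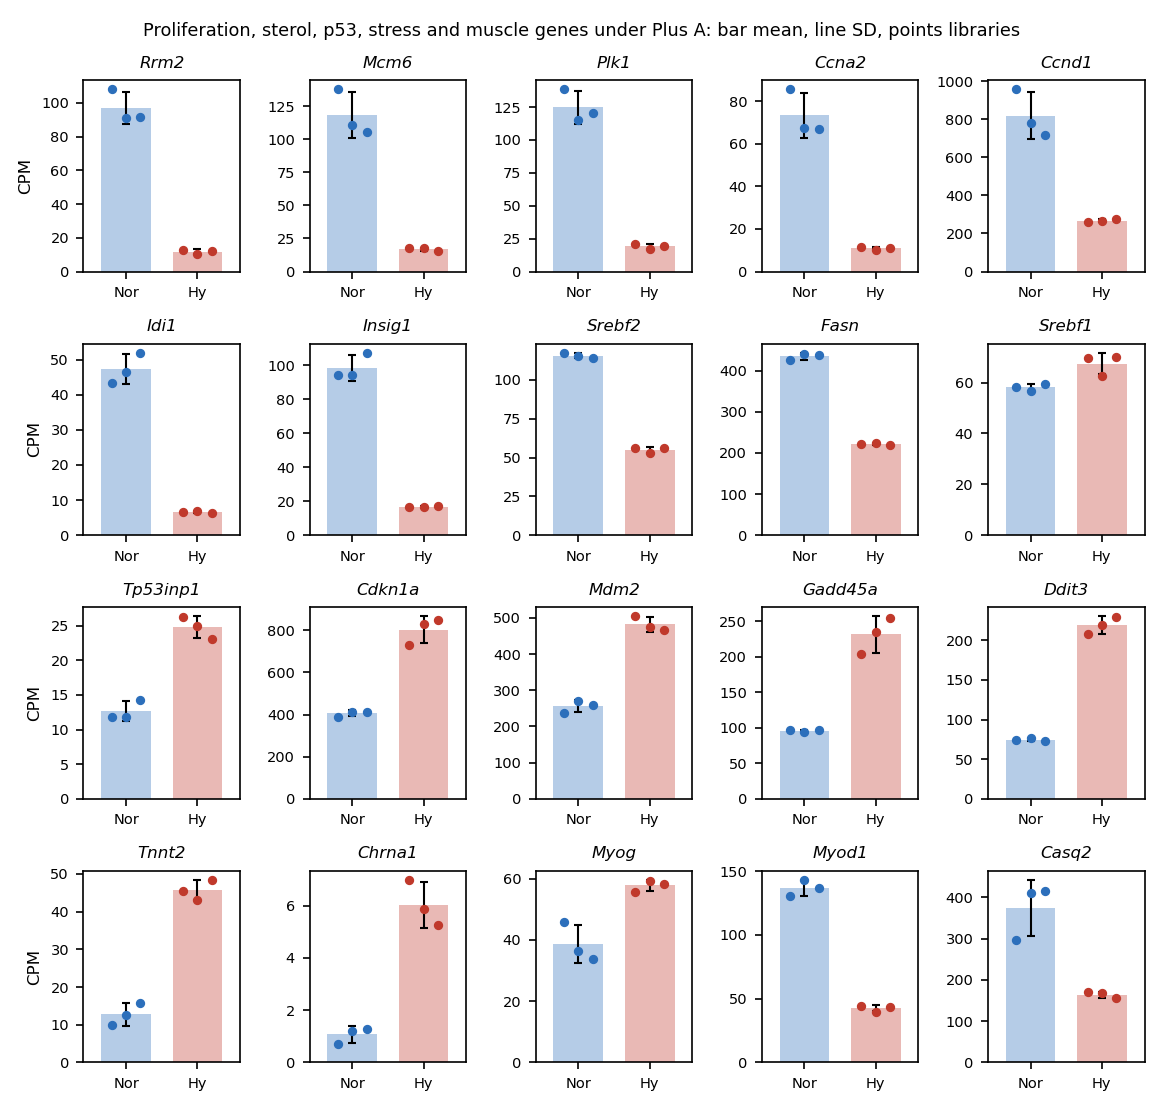
Bars are the mean CPM of 3 libraries in normoxia (Nor, blue) and hypoxia (Hy, red) under Plus A, lines the SD and points the libraries; each panel has its own linear axis from 0. Cell cycle genes, Idi1, Insig1, Srebf2 and Fasn are lower in hypoxia, while Tp53inp1, Cdkn1a, Mdm2, Gadd45a and Ddit3 are higher, and the muscle genes are split, with Tnnt2, Chrna1 and Myog higher and Myod1 and Casq2 lower.

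The stress lists held genes that rose and genes that fell. In the integrated stress response, ATF4 directs genes for amino acid supply and cell death. Of its 17 genes 5 rose and 1 fell (median 0.35), or 29.4 and 5.88%, against 10.0 and 12.8% of all genes. Ddit3, which encodes CHOP, was at 208, 220 and 230 CPM in hypoxia and at 74.5, 77.1 and 72.4 CPM in normoxia (log2 fold change 1.56, SE 0.06, adjusted p = 1.74e-07). Trib3, a pseudokinase induced by CHOP, and Ppp1r15a, which restores translation, rose 2.77-fold and 2.20-fold. The genes for amino acid supply stood apart from these, with Psat1 lower at -0.60 and Asns and Atf4 at 0.35 and 0.37, not called. Of 16 endoplasmic reticulum chaperone genes, 1 rose (6.25%) and 4 fell (25%), with a median of -0.08. Dnajb9 rose 1.69-fold, Sdf2l1, Pdia6, Pdia3 and Calr fell, and Hspa5, which encodes BiP, was not called (log2 fold change 0.10, SE 0.06). With library totals alone 1 of the 4 that fell was still called lower.

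Of 14 NRF2 targets, which act against oxidants, 4 rose and 1 fell (median 0.11). As shares these are 28.6 and 7.14%, against 10.0 and 12.8% of all genes. Osgin1 went from 6.29, 6.72 and 5.82 CPM to 25.5, 24 and 24.9 CPM (log2 fold change 1.99, SE 0.09). Gclc, of glutathione synthesis, and the quinone reductase Nqo1 rose 1.98-fold and 1.96-fold, while Taldo1, of the pentose phosphate pathway, had a log2 fold change of -0.73. Heat shock genes included none that rose among 13 tested. The small heat shock genes Hspb1 and Hspb8 fell by 1.29 and 0.66 on the log2 scale. The share called lower, 15.4%, was near the 12.8% of all genes. Hspb8 lost its call, by fold size, with library totals alone and without hypoxia replicate 3. Leaving out the library labelled Normoxia Plus A replicate 1 gave 3 lower heat shock genes. In the interferon list 3 of 18 rose, Ifit2, Ifi44 and Tap1, with log2 fold changes of 1.46, 0.98 and 0.98, and 1 fell. Those counts are 16.7 and 5.56%, against 10.0 and 12.8% of all genes.

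Growth factor responsive genes were more often lower than higher. Of 21 immediate early genes 9 fell and 3 rose (median -0.38), or 42.9 and 14.3%, against 12.8 and 10.0% of all genes. Ccnd1, cyclin D1, was at 258, 267 and 277 CPM in hypoxia and at 958, 779 and 719 CPM in normoxia (3.05-fold lower, adjusted p = 1.51e-06). The nuclear receptor Nr4a1 fell 3.38-fold, and the phosphatases Dusp1, Dusp5 and Dusp6 fell with it. Myc and Klf4 rose, by 0.71 and 0.81 on the log2 scale. The third gene called higher, Egr2, overlapped between the groups and lost its call in 5 of the 6 fits that left out a library, so that 2 were higher without the library labelled Normoxia Plus A replicate 1. Of the 15 genes tested from the list named serum withdrawal, 4 rose and 1 fell (median 0.17). The list was put together here, and whether its members answer to serum in these cells was not tested. These are 26.7 and 6.67%, against 10.0 and 12.8% of all genes. Klf15 went from 1.81, 1.501 and 0.935 CPM to 7.17, 7.999 and 8.45 CPM (log2 fold change 2.48, SE 0.22), and Txnip and Pik3ip1 rose 2.08-fold and 2.03-fold.

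Muscle genes were split evenly, with 6 of 23 tested higher and 6 lower (median -0.25). That is 26.1% each way, against 10.0 and 12.8% of all genes. Chrna1, the alpha subunit of the muscle acetylcholine receptor, rose from 0.711, 1.22 and 1.28 CPM to 6.98, 5.88 and 5.24 CPM (log2 fold change 2.50, SE 0.24). Tnnt2, cardiac troponin T, rose from 9.91, 12.5 and 15.8 CPM to 45.3, 43.1 and 48.4 CPM (log2 fold change 1.85, SE 0.14, adjusted p = 6.13e-06). The myogenic factors moved apart. Myod1, of the undifferentiated myoblast, fell from 131, 143 and 136 CPM to 44.3, 39.8 and 43.1 CPM, and Myog, of differentiation, rose from 45.8, 36.4 and 33.8 CPM to 55.8, 59.2 and 58.3 CPM. Tnnc2, fast troponin C, and the calcium store protein Casq2 fell by 1.22 and 1.18 on the log2 scale. Without the library labelled Normoxia Plus A replicate 1, 6 were higher and 8 lower.

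As markers of identity, 9 of 10 myoblast genes were tested, and Myf5 was at 0 in every library. Of 8 genes of mature cardiomyocytes 6 averaged under 1 CPM, among them Myh6 and Ryr2, and 1 of the 4 tested fell. The 7 genes shared with fibroblasts summed to 24878 to 26335 CPM under hypoxia and 28624 to 30964 CPM under normoxia. Most of this sum was Col1a1, at 23029 to 23593 CPM in hypoxia and 25351 to 27655 CPM in normoxia. Of the 7 genes, 1 averaged under 1 CPM. Of 24 matrix genes 5 rose and 4 fell (median 0.06), or 20.8 and 16.7%, against 10.0 and 12.8% of all genes. The small proteoglycans Dcn, Ogn and Lum rose by 2.37, 1.71 and 1.61 on the log2 scale from low levels, whereas the abundant thrombospondin gene Thbs1 fell from 5926, 5192 and 5183 CPM to 1886, 1740 and 1668 CPM. Col1a2 was called lower at -0.62 (SE 0.16), with 1 hypoxia library at 2307 CPM near the normoxia libraries, and lost its call without hypoxia replicate 1 or 2 and with library totals alone or upper quartile factors. The matrix list without the library labelled Normoxia Plus A replicate 1 again had 5 higher and 4 lower, with a median of 0.12.

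The steepest rises were taken among genes with a name and a mean of at least 1 CPM. Cyp1a1 (ENSRNOG00000019500), a cytochrome P450 of xenobiotic metabolism, was at 6.72, 6.10 and 6.63 CPM in hypoxia and 0.249, 0.5002 and 0.0692 CPM in normoxia (log2 fold change 4.56, SE 0.39, adjusted p = 1.17e-05). Aldh3a1, an aldehyde dehydrogenase, was the most abundant of the 10, at 60.9, 56.3 and 56.4 CPM against 8.60, 2.29 and 1.97 CPM. Dapk1, a kinase linked to cell death, Cask, a synaptic scaffold kinase, Tenm4, a teneurin, and the mechanosensitive channel gene Piezo2 rose by 3.97, 3.97, 3.90 and 3.65 on the log2 scale. In normoxia these 4 genes lay between 0.139 and 0.357 CPM in every library. The noncoding RNA 7SK and the loci AABR07037412.2 and AABR07039233.1 rose by 4.15, 4.43 and 3.77. In these libraries of polyadenylated RNA 7SK was low, at 2.50, 2.89 and 2.93 CPM in hypoxia and 0.426, 0 and 0.0346 CPM in normoxia. LOC100911047 rested on a single library, with 12 CPM in hypoxia replicate 1 and 0.642 and 0.370 CPM in the others, and without that library its log2 fold change was 1.02 (adjusted p = 0.121).

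Among the steepest falls were those of AABR07051069.1 (log2 fold change -5.27) and Xirp1, an actin-binding protein of striated muscle. Xirp1 (ENSRNOG00000037085) was at 0.0960, 0.321 and 0.154 CPM in hypoxia and at 6.50, 6.93 and 8.45 CPM in normoxia (log2 fold change -5.23, SE 0.32, adjusted p = 1.62e-06). Lmod3, an actin nucleator of muscle, fell from 51.5, 76.1 and 75.7 CPM to 5.60, 4.95 and 4.90 CPM. LOC100909521 fell from 21.4, 36.2 and 37.0 CPM to 1.41, 1.48 and 1.11 CPM. The groups did not overlap in any of these genes, but this was a condition for naming them here. Chrdl2, a secreted antagonist of bone morphogenetic proteins, Cyp11b2, the aldosterone synthase gene, LOC500300, the histone deacetylase gene Hdac9 and the tetraspanin gene Cd151 fell by 4.32, 4.14, 4.11, 3.97 and 3.71. Counts of Cyp11b2 may include reads of its close paralogue.

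The response to the hypoxia condition under Plus A was then set against that of cells given miR-125b, whose libraries are separate. In this condition oxygen, serum and glucose changed together. Under miR-125b 1403 genes were higher and 1732 lower in hypoxia. Across 14784 genes tested in both, which are not independent replicates, the log2 fold changes had a Pearson r of 0.83. Of 3376 Plus A calls tested in both, 2311 (68.5%) were called the same way under miR-125b, which is 74.8% of the miR-125b calls. Without the libraries labelled replicate 1 of both normoxia groups these shares were 67.1 and 72.3%, with an r of 0.79. The interaction, which tests the difference between the responses, called 3 of 15569 genes (0.0193%), and 2509 genes (16.1%) had an unadjusted p below 0.05. With DESeq2 it called 26 higher and 45 lower, and with library totals alone it called none. Cask was at 3.04, 2.41 and 2.99 CPM in Hypoxia Plus A and at 0.142, 0.143 and 0.242 CPM in Normoxia Plus A, whereas under miR-125b it stayed between 0.157 and 1.46 CPM (interaction 5.39, SE 0.82, adjusted p = 0.0442). Foxc2, a forkhead factor, fell by 1.95 on the log2 scale under Plus A and by 0.90 under miR-125b. The third call was the less abundant identifier named Pfkfb4, which is given here because it completes the count and averaged under 1 CPM. Without the libraries labelled replicate 1 of both normoxia groups the interaction called 4 genes, all lower.

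None of the 412 list genes tested was called in that interaction. The medians stood side by side at 0.60 under Plus A and 0.92 under miR-125b for HIF targets, 0.01 and 0.36 for the 22 glycolysis genes tested in each mimic, -1.98 and -1.93 for mitosis, and -1.52 for sterol synthesis under each. Without the library labelled Normoxia Plus A replicate 1, the glycolysis median was 0.20 over all members tested under Plus A. Differences between these medians were not tested.

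Against Trim A, 3517 of 15559 genes (22.6%) had an unadjusted p below 0.05 in the interaction. It called 22 genes (0.141%), 18 with the higher fold change under Plus A and 4 with the lower. Of the list genes, 4, Hmox1, Myog, Postn and Tnnt2, were among those called. Tnnt2 rose under Plus A, as above, whereas under Trim A it was at 28.8, 28.2 and 30.02 CPM in hypoxia and at 23.96, 45.4 and 25.0 CPM in normoxia (interaction 1.96, SE 0.29, adjusted p = 0.0237). Hmox1 rose in both, to 910, 1045 and 1045 CPM from 183, 150 and 174 CPM under Trim A, which was steeper than under Plus A (interaction -0.82, SE 0.12, adjusted p = 0.0237). Tnc, tenascin C of the matrix, fell by 1.86 on the log2 scale under Plus A and by 3.38 under Trim A. Olfml2b and Abi3bp, also of the matrix, stood at 0.35 and 0.60 under Plus A and at -1.66 and -0.81 under Trim A. Hfe2, an iron regulator known from muscle, fell by 1.17 and 3.62. These calls were few and moved with single libraries: without Hypoxia Trim A replicate 1 the interaction called 785 higher and 684 lower genes, and without Hypoxia Plus A replicate 1 it called none. In Hypoxia Trim A replicate 1 genes of the mitochondrial genome took 3.41% of the counts, against 5.00 and 4.47% in replicates 2 and 3, and the part of this difference in the result was not tested.

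**Figure D5:**
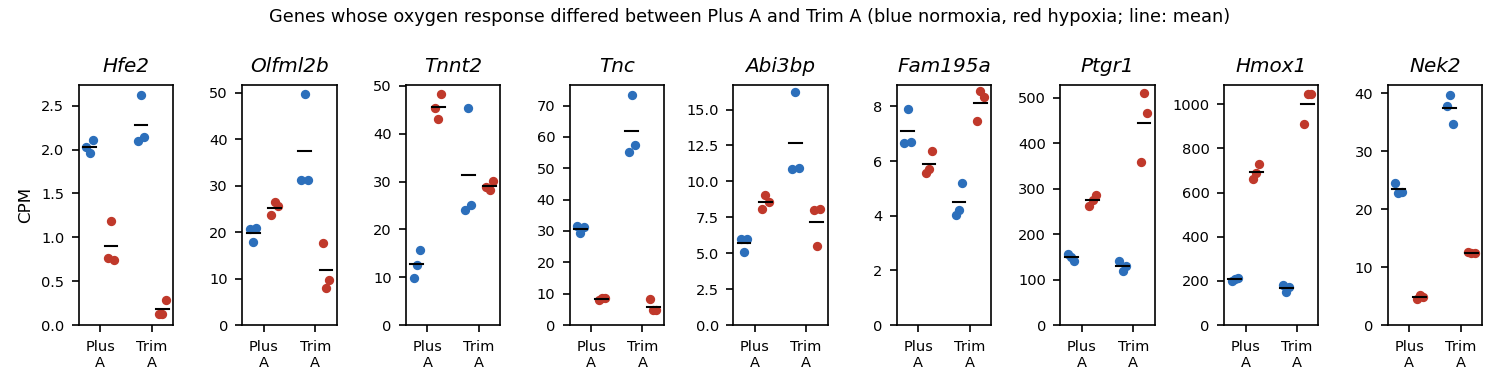
Points are the CPM of the 12 libraries of Plus A and Trim A for the 9 named genes of the interaction, blue in normoxia and red in hypoxia, with a line at the mean of each group of 3; each panel has its own linear axis from 0. Tnnt2 rises in hypoxia under Plus A and overlaps under Trim A, while Hmox1 rises under both, further under Trim A.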

How the data were processed

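Polyadenylated RNA of H9C2 cells was sequenced from libraries that were not stranded. Per the labels and the study's methods, the authors aligned the reads, HISAT2 and StringTie being named in the submitters' processing notes without versions, and deposited counts and FPKM per gene in tables of pairwise comparisons. The genome build was not given in the sources used here. Counts were deposited as raw whole numbers, and FPKM values, normalised by the authors for gene length and depth, served only for levels between genes. The deposited fold changes and p-values of the authors' own comparisons were not used.

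Tables were joined on gene identifier, with an absent gene set to 0. Where one table of a library left out a gene, its count elsewhere was at most 1. Counts of the 6 libraries were filtered with filterByExpr, scaled with TMM factors and fitted with edgeR 4.0.16 in R 4.3.3 (quasi-likelihood test, Benjamini-Hochberg adjustment). Genes were called at an adjusted p below 0.05 and a fold of at least 1.5. The comparisons with miR-125b and Trim A were interaction terms in fits of 12 libraries each. CPM values used TMM factors over the 18 libraries of Plus A, miR-125b and Trim A. The scripts were tested on simulated data. With 28672894 to 30908069 counts per library, low genes carry the largest counting error.

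Members and gene lists were chosen with earlier results of these data known. Genes were named by rule: those the study names, up to 4 called members per list with the steepest change and other members that show what a list holds, the 10 steepest named and called genes per direction without overlap at a mean of at least 1 CPM, the 5 steepest interaction genes per direction, and Cav1. Where a symbol had more than 1 identifier, the one with more counts was used. Symbols without a match in the tables, such as Egln1, Ccnb2, Pecam1, Cdh5 and Kdr, were not analysed here. Promoter and microRNA sequences came from RefSeq (GRCr8). Alternatives were DESeq2 1.42.0, other scalings, no filter, the replicate number as a block, a gene length correction, other fold thresholds, 1 fit of 18 libraries and each library left out in turn. The overlap of calls between mimics without replicate 1 of both normoxia groups was added after seeing the data. Some genes that these rules would name are not reported here.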

Additional observations from a re-analysis of the deposited data

Results flagged for a closer look

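The response to the hypoxia condition was called different between Plus A and miR-125b in Cask and Foxc2, by the interaction in edgeR's quasi-likelihood test. Neither call was kept in every alternative. In the same test the adjusted p rose to 0.149 in Cask with the replicate block. In Foxc2 it rose to 0.144 without Hypoxia miR-125b replicate 2. The interaction was 5.39 (SE 0.82) in Cask and -1.05 (SE 0.16) in Foxc2. A positive value is a higher log2 fold change under Plus A. Under miR-125b, Foxc2 was at 8.51, 8.53 and 8.93 CPM in hypoxia and 15.01, 16.2 and 17.5 CPM in normoxia, against 4.55, 3.85 and 4.47 CPM and 17.7, 14.2 and 17.9 CPM under Plus A.

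Between Plus A and Trim A the difference was 2.46 in Hfe2, 2.02 in Olfml2b, 1.96 in Tnnt2, 1.53 in Tnc and 1.42 in Abi3bp. It was negative in Fam195a (-1.12), the prostaglandin reductase gene Ptgr1 (-0.89), Hmox1 (-0.82) and the mitotic kinase gene Nek2 (-0.68). Ptgr1 and Hmox1 rose under both mimics and Nek2 fell under both, whereas Fam195a stood at -0.26 under Plus A and 0.86 under Trim A. Each of these calls against Trim A was lost in some fit that left out a single library. Over the genes named for either interaction and all alternatives of processing and libraries, 133 values lost the call and 85 kept it.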

How the results depend on the processing

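The counts of genes called under Plus A stayed within 1.5 times of 1503 higher and 1924 lower with DESeq2 (1316 and 1940), other scalings, no filter (1509 and 2054), the gene length correction and 1 fit of 18 libraries. They were 683 and 962 at a 2-fold threshold and 3599 and 3800 without one, which follows from the thresholds. Leaving out 1 library gave 1324 to 1415 higher and 1836 to 1940 lower. Same-numbered libraries did not deviate together (r of 0.00, -0.03 and 0.02), so the numbers were not taken as pairs. With the replicate block 1417 and 1897 genes were called, and the interactions called 0 higher and 0 lower against miR-125b and 25 higher and 29 lower against Trim A.

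Against miR-125b the interaction called 1 higher and 2 lower, and it called 26 and 45 with DESeq2, 0 and 0 with library totals, 3 and 7 without the filter and 1 and 5 without a fold threshold. With 1 library left out it called 0 to 4 higher and 0 to 6 lower, the 4 without Normoxia miR-125b replicate 2 and the 6 without Hypoxia Plus A replicate 3. Without replicate 1 of both normoxia groups it called 0 and 4. Against Trim A, 18 higher and 4 lower became 210 and 238 with DESeq2, 15 and 2 with library totals, 121 and 167 without the filter, and 13 and 1 at 2-fold. Leaving out libraries gave 0 to 785 higher and 0 to 684 lower, and without replicate 1 of both normoxia groups 2 and 0. The cause was not tested.

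Of the values of named genes, Bak1 alone reversed, from -0.07 to 0.039 with library totals and to 0.011 without Hypoxia Plus A replicate 1 (-0.17 to 0.011 over single libraries left out), and was never called. Over all alternatives 33 values of named genes lost a call, 5 gained one and 1428 stayed. Of the list medians, 17 moved over all alternatives, 11 of them with library totals, among these ER chaperones to 0.03 and apoptosis to 0.06, and the others with a library left out. With 3 libraries a group, small differences and genes near the filter were the least certain.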

Other observations

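Cyp1a1 and Aldh3a1, among the steepest rises, are textbook targets of the aryl hydrocarbon receptor (AHR), which shares its partner ARNT with HIF. Other genes of this kind were looked up after these values had been seen, so they carry no test as a group. Ahrr, the repressor of the receptor, was at 164, 147 and 144 CPM in hypoxia and 52.3, 46.5 and 45.4 CPM in normoxia, a log2 fold change of 1.66 (SE 0.08). Tiparp, which ADP-ribosylates the receptor, was at 36.4, 35.1 and 35.6 CPM against 15.9, 14.1 and 14.1 CPM (log2 fold change 1.29, SE 0.08). Both were called higher, without overlap of the groups. Ahr itself and Cyp1b1, a further target, were not called, with log2 fold changes of -0.30 and 0.20 (SE 0.07 for each).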
